A study of Mus musculus with 6 samples.

Results

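The 10 genes described here belong to mast cell and eosinophil granules or their regulation, and were followed in MS5, a stromal line from mouse bone marrow, grown with or without the MEK inhibitor PD184352 (MEKi). They are the tryptase genes Tpsab1, Tpsb2 and Tpsg1, the mast cell and basophil proteases Cma1, Mcpt4 and Mcpt8, the carboxypeptidase gene Cpa3, the eosinophil genes Rnase2a and Prg2, and Gata2, a transcription factor. A gene was included when a probe set, the group of short probes that measures 1 transcript, carried its symbol and no other. Each of the 10 genes had 1 such probe set, so that 10 of 19938 named genes, and 10 of the 28853 probe sets on the array, were used. The cultures received 1 μM PD184352, or its diluent DMSO, for 7 days in 3 independent experiments, called series in the labels, with 1 culture and 1 array per condition and experiment (3 diluent and 3 MEKi arrays, 6 in all). No other agent or genetic change is named for either group, and all cultures are of the same cell line. Values are log2 intensities normalized by the authors with RMA, on which a difference of 1 is a doubling. The genes were chosen by their MEKi and diluent values on these same arrays, so that their differences are given as a description, with no test.

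Mast cells keep tryptases, chymases and carboxypeptidase A3 ready in granules, bound to the heparin chains of the proteoglycan serglycin, and release them when antigen crosslinks IgE on the receptor FcεRI. Eosinophil granules hold major basic protein, encoded by Prg2, a peroxidase, and RNases of the RNase A superfamily, to which Rnase2a belongs. GATA2 is needed for the formation of mast cells from their progenitors, and stromal cells of the bone marrow supply KIT ligand, on which mast cells depend.

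With MEKi, Rnase2a and Tpsab1 were lower in each of the 3 experiments, and the other 8 genes showed smaller or uneven differences. Mean differences, MEKi minus diluent, were −1.43 for Rnase2a, −1.10 for Tpsab1 and −0.42 for Mcpt8, and those of the remaining 7 genes lay within 0.15 of 0 on the log2 scale. Rnase2a and Tpsab1 were the 2 of the 10 genes that were at least 1.5-fold lower in every experiment, while 0.0624% of all probe sets were (18 of 28853). None of the 10 was at least 1.5-fold higher in every experiment (0.0832% of all probe sets). Lower in all 3 experiments, by any amount, were 4 of the 10 genes (7.98% of all probe sets). One gene, Cpa3, was higher in all 3 (23.8% of all probe sets). The median of the 10 mean differences was −0.07, and that of all probe sets 0.037. For none of the 10 did the MEKi arrays all lie below the diluent arrays (2.17% of all probe sets). In RNA from a whole culture, fewer cells that express a gene and less RNA per cell cannot be told apart.

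**Figure D1:**
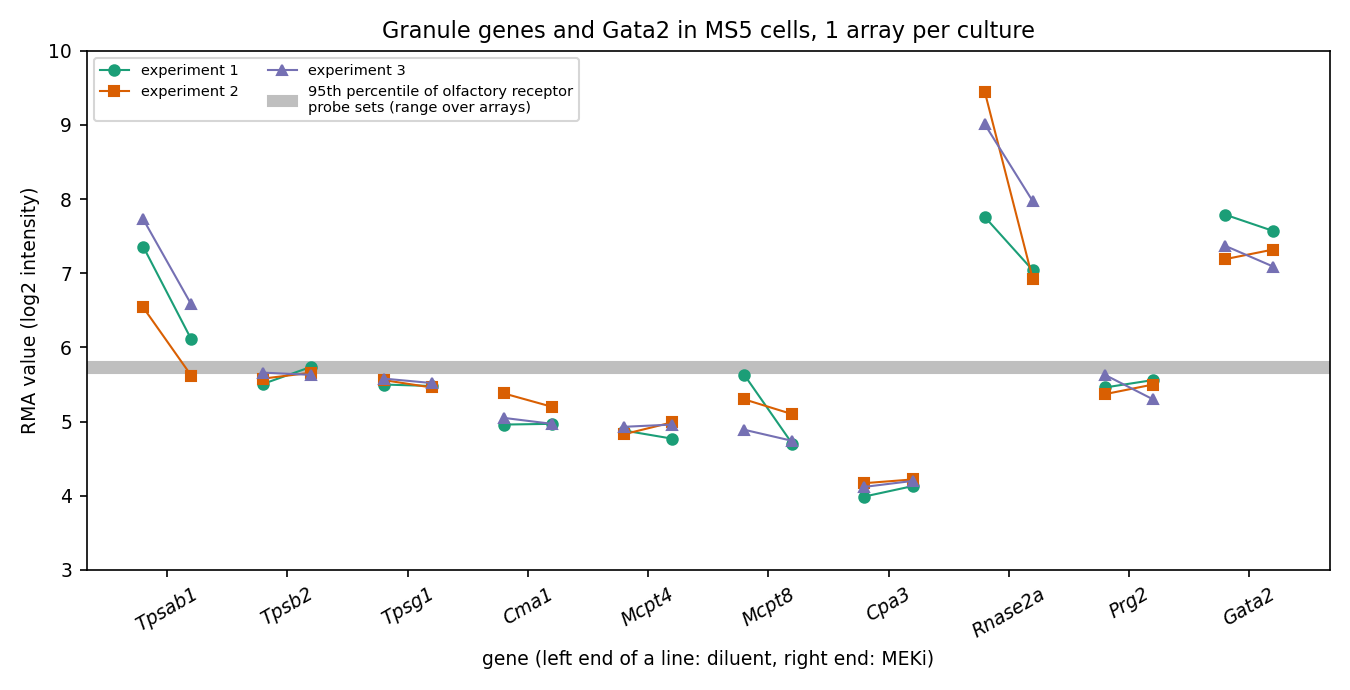
RMA values on the log2 scale (y axis) of the 10 genes (x axis) in diluent cultures (left end of each line) and MEKi cultures (right end); a line joins the cultures of an experiment, and the grey band is the range over the 6 arrays of the 95th percentile of olfactory receptor probe sets. Rnase2a and Tpsab1 slope down in every experiment, Gata2 lies above the band with no common slope, and the other 7 genes lie at or below the band.

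The signal of 7 of the 10 genes lay in the range of probe sets for olfactory receptors, genes of sensory neurons. As a reference for dim signal, the 1035 probe sets of these receptors had medians between 4.07 and 4.22 and 95th percentiles between 5.65 and 5.80 on the 6 arrays. Probes differ in how strongly they bind, so this reference marks dim signal and does not rank genes. Rnase2a, Tpsab1 and Gata2 exceeded the 95th percentile on all 3 diluent arrays. The other 7 genes did not exceed it on any of the 6 arrays, their values running from 3.99 to 5.74. A lower level cannot be told from background in this range, so that a difference near 0 there does not show an unaltered level. Markers of stroma were bright, with Vim, an intermediate filament of mesenchymal cells, between 13.23 and 13.27 and Col1a1, a chain of type I collagen, between 10.77 and 11.07 in diluent. Of the 15 stromal markers measured, 11 exceeded the reference on all diluent arrays, the exceptions including Lum, Thy1 and Nt5e.

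Rnase2a encodes an eosinophil-associated RNase and is also known as Ear11. Its values in experiments 1, 2 and 3 were 7.76, 9.45 and 9.01 with diluent and 7.04, 6.92 and 7.97 with MEKi. Every MEKi culture was lower than the diluent culture of its own experiment, although the MEKi culture of experiment 3 was above the diluent culture of experiment 1. The differences were −0.72, −2.53 and −1.03, so that 60.7%, 17.3% and 48.9% of the diluent level remained. Experiment 2 had both the highest diluent value and the lowest MEKi value. The mean difference was −1.43 ± 0.97 (SD, n = 3), a level 2.69-fold lower, and −0.88 without experiment 2. Among all 28853 probe sets, Rnase2a included, 3 had a difference as low or lower in experiment 2, 22 in experiment 3 and 197 in experiment 1.

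Rnase2b, a close relative of Rnase2a, lies in the same gene cluster and was dim in both conditions. Its values were 4.77, 4.67 and 4.69 with diluent and 4.68, 4.62 and 4.58 with MEKi, all within the dim range (log2 fold change −0.08, adjusted p = 0.76 from limma). The 250 bases before the annotated starts of the pair are shown because one gene was bright and lower with MEKi and the other dim in both conditions. They come from RefSeq on GRCm38.p6, Rnase2a from chr14:51256113-51256362 on the minus strand and Rnase2b from chr14:51162010-51162259 on the plus strand, and are written 5′ to 3′. Capitals mark bases that differ between them or have no partner in the alignment.
Rnase2a: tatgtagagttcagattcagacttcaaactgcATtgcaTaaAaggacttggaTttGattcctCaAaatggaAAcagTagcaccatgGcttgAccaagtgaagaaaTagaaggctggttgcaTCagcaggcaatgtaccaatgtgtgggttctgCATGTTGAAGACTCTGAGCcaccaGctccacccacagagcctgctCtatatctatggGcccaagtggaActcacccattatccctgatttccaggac
Rnase2b: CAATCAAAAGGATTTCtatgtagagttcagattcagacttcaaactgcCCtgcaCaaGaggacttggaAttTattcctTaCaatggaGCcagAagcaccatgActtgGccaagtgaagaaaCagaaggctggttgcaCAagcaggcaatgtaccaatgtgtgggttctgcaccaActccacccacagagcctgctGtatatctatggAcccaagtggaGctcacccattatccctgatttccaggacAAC
In a global alignment 231 bases were paired, 211 of them identical (91.3%), and 19 bases of each had no partner. In Rnase2a, the unpaired bases form 1 run in capitals. Probe sequences were not used here, so whether transcripts of other members of this gene family bind the Rnase2a probes was not tested.

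Tpsab1 encodes the tryptase also called mast cell protease 7, and the RefSeq table of the C57BL/6J reference lists it as a transcribed pseudogene. Its values in experiments 1, 2 and 3 were 7.36, 6.54 and 7.73 with diluent and 6.11, 5.62 and 6.58 with MEKi. Each MEKi culture was lower than its own diluent culture, and the MEKi culture of experiment 3 was level with the diluent culture of experiment 2. The differences were −1.24, −0.92 and −1.15, with a mean of −1.10 ± 0.17 (SD, n = 3), a level 2.15-fold lower. The MEKi signal exceeded the dim range in 2 of the 3 experiments, 1 and 3, where 42.2% and 45.1% of the diluent level remained. The spread of these differences was smaller than that of Rnase2a, and leaving out any 1 experiment gave means from −1.20 to −1.03. Among all probe sets, 35, 37 and 14 had a difference as low or lower in experiments 1, 2 and 3. With MEKi the value of experiment 2 was below the 95th percentile of olfactory receptors on its array (5.80), so that its difference, and the mean fold that includes it, rest on a signal not above background. The mean was −1.20 without that experiment. Tpsab1 and Rnase2a did not order the diluent cultures alike: experiment 2 was the lowest of the 3 for Tpsab1 and the highest for Rnase2a.

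**Figure D2:**
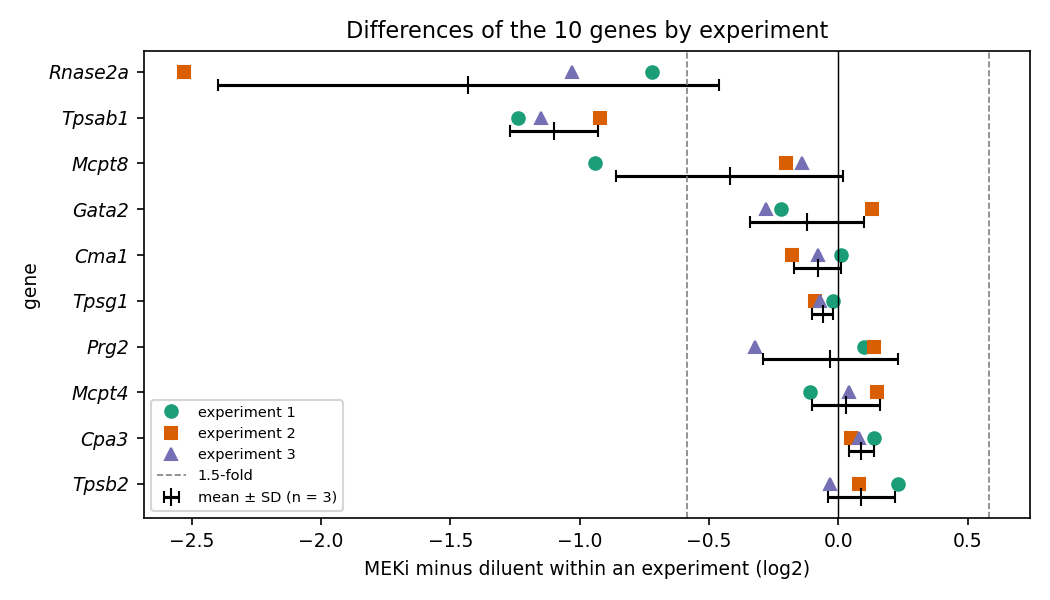
The difference MEKi minus diluent of each of the 10 genes (y axis), in log2 units (x axis); points are the 3 experiments, the black bar under them is the mean ± SD (n = 3), and dashed lines mark 1.5-fold. All 3 points of Rnase2a and Tpsab1 lie beyond 1.5-fold lower, and of the other genes 1 point does, that of Mcpt8 in experiment 1.

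The other tryptase genes stayed dim. Tpsb2, which encodes the tryptase mast cell protease 6, had 5.51, 5.58 and 5.66 with diluent and 5.74, 5.66 and 5.63 with MEKi (mean difference 0.09 ± 0.13 SD, n = 3). It was higher with MEKi in 2 experiments and lower in 1. Tpsg1, a tryptase anchored in the membrane, had 5.50, 5.56 and 5.58 with diluent and 5.48, 5.46 and 5.52 with MEKi (−0.06 ± 0.04 SD, n = 3). All 6 of its values lay between 5.46 and 5.58, and each MEKi value was slightly below that of its own experiment.

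Of the chymase-type genes, Cma1 and Mcpt4 encode chymases of connective tissue mast cells, and Mcpt8 encodes a protease of basophils. Cma1 ran from 4.96 to 5.38 and Mcpt4 from 4.77 to 4.99 over the 6 arrays, with mean differences of −0.08 ± 0.09 and 0.03 ± 0.13 (SD, n = 3). Neither had a common direction in the 3 experiments. Mcpt8 had 5.63, 5.30 and 4.89 with diluent and 4.70, 5.10 and 4.74 with MEKi. Its differences were −0.94, −0.20 and −0.14, so that the mean of −0.42 ± 0.44 (SD, n = 3) rested on experiment 1, and it was −0.17 without that experiment. Even the highest Mcpt8 value was within the dim range.

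Cpa3, the carboxypeptidase that mast cells store with their chymases, had 3.99, 4.17 and 4.12 in diluent and 4.13, 4.22 and 4.20 in MEKi. All 6 values were near the median of olfactory receptor probe sets, and the mean difference was 0.09 ± 0.05 (SD, n = 3). Prg2, which encodes eosinophil major basic protein, had 5.46, 5.37 and 5.63 with diluent and 5.56, 5.50 and 5.30 with MEKi. It was higher in 2 experiments and lower in 1 (mean difference −0.03 ± 0.26 SD, n = 3).

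Gata2 was expressed above the dim range in every culture. Its values were 7.79, 7.19 and 7.37 with diluent and 7.57, 7.32 and 7.09 with MEKi. The differences of −0.22, 0.13 and −0.28 had no common direction, and their mean of −0.12 ± 0.22 (SD, n = 3) was smaller than their spread. GATA factors bind DNA at short sequences around the letters GATA, and the promoters of the members were searched on both strands for AGATAA and for the same word with T as its first letter, with G as its last letter or with both changes, from 250 bases before to 50 after each annotated start. Promoters of 7 of the 10 genes were found in the RefSeq table, 9 promoters in all, since Gata2 and Tpsg1 have several starts. At least 1 of these words occurred in 5 of the 9 promoters, and in 29.8% of 32851 promoters of all genes. These 5 belong to 4 of the 7 genes, Cpa3, Mcpt4, Cma1 and Tpsg1. No such word occurred in the window of Rnase2a, Mcpt8 or Gata2. The words are shown with 20 bases on either side, in capitals and 5′ to 3′ on the gene's strand, because the 4 genes that carry them in this window were all dim while Gata2 itself was not. They lie on GRCm38.p6 at chr3:20242202-20242247 (Cpa3), chr14:56062388-56062433 (Mcpt4) and chr14:55944729-55944774 (Cma1) on the minus strand, and at chr17:25369160-25369205 (Tpsg1) on the plus strand. The word of Cma1 is read on the opposite strand. Tpsg1 has 2 further words after its annotated starts, 1 in each of its promoters, which are not shown.
Cpa3: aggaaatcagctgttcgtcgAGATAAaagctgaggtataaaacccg
Mcpt4: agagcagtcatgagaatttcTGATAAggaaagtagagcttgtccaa
Cma1: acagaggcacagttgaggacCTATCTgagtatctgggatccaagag
Tpsg1: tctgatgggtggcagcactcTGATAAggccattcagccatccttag
The AP-1 motif TGANTCA, which contains none of the GATA words, occurred in none of the 9 promoters and in 7.81% of all promoters. The ETS words CCGGAA and AGGAAG occurred in 2 of the 9, those of Cma1 and Mcpt4, and in 45.2% of all. The E-box words CATGTG and CACGTG occurred in none of the 9 and in 20.4% of all. A match describes the letters and is not a binding site.

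Genes beside the members on the chromosome were read next, a choice made after the members' values were known. Tpsab1, Tpsb2 and Tpsg1 follow each other in a row of tryptase-like genes. The 7 measured genes among the 4 on either side had mean differences from −0.15 to 0.10. Those next to Tpsab1 on its outer side, the serine protease genes Prss34, Prss28 and Prss29, had −0.05, −0.02 and 0.01, but were within the dim range on all 6 arrays. Of the 7 genes, Cacna1h and Sox8 exceeded the olfactory receptor reference on all 3 diluent arrays, with −0.15 and −0.10. Cacna1h, at 5.81, 5.85 and 5.72 in diluent, was close to that reference and exceeded it on no MEKi array, so its difference lies at the edge of background. Around Cma1, Mcpt4 and Mcpt8, 10 genes were measured, with means from −0.42 to 0.18. The lowest mean was that of Gzme, a granzyme gene that lies 1 gene beyond Mcpt8. Gzme had 7.62, 7.37 and 6.13 with diluent and 6.25, 7.47 and 6.13 with MEKi. Like Mcpt8 it had its lowest difference in experiment 1 (−1.37), with 0.11 and −0.00 in the others (mean −0.42, adjusted p = 0.658 from limma), whereas Ctsg, the cathepsin G gene between them, had −0.09, −0.00 and −0.09. Around Rnase2a, 6 genes were measured, with means from −0.25 to 0.07. Of these, 4 were within the dim range on every array, and the 2 above it were Ang2, an angiogenin, with −0.30, 0.02 and −0.48, and Rnase1, a pancreatic-type RNase, with 0.05, 0.06 and −0.75.

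**Figure D3:**
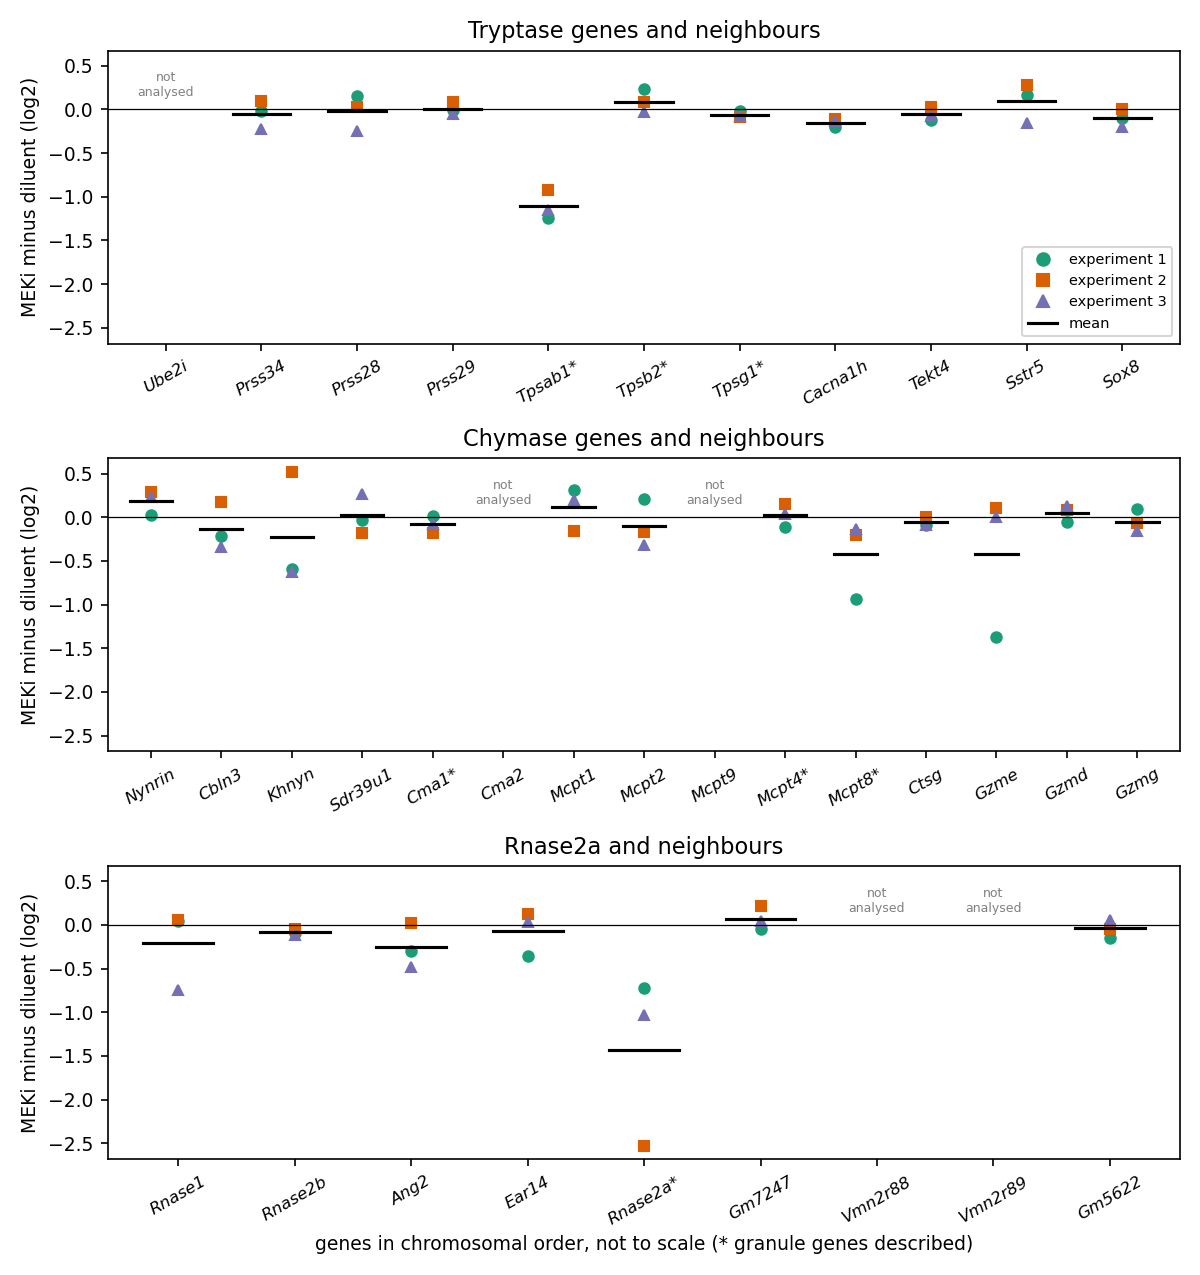
MEKi minus diluent on the log2 scale (y axis) for the tryptase genes, the chymase genes and Rnase2a (marked with a star) and up to 4 genes on either side, in chromosomal order and not to scale (x axis); points are the 3 experiments and black lines their mean. Tpsab1 and Rnase2a have means of −1.10 and −1.43, most of the genes beside them (5 of 7 and 4 of 6 measured) were within the dim range on every array, and Mcpt8 and Gzme have a low point in experiment 1.

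Other genes of mast cells, basophils and eosinophils were mostly dim and none passed the test. Of 26 further mast cell and basophil genes measured, none rose and none fell at an adjusted p under 0.05 in limma, which compared MEKi with diluent within experiments over all 28853 probe sets. Over all probe sets 0.159% passed (46), 0.104% as higher (30) and 0.0555% as lower (16). The median of the 26 genes was 0.03. On none of the 6 arrays did 18 of them exceed the olfactory receptor reference, among them Kit, the receptor of KIT ligand (5.24 to 5.45 in diluent), Fcer1a, the IgE-binding chain of FcεRI (3.94 to 3.96), and Ms4a2, its β chain. The 7 that exceeded it on all diluent arrays were Hdc, Ltc4s, Slc45a3, Cd63, Il3ra, Csf2rb and Mitf. In diluent, Ltc4s was at 7.34 to 9.03, Slc45a3 at 6.14 to 6.34 and Hdc at 5.78 to 5.93. Cd63 encodes a membrane protein of lysosomes and granules, Il3ra and Csf2rb chains of the IL-3 receptor, and Mitf a transcription factor. Csf2rb had the largest difference (−0.41, adjusted p = 0.192) and Mitf the next (−0.38, adjusted p = 0.418 from limma), followed by Cd200r3 with 0.16 and Alox5, the 5-lipoxygenase of leukotriene synthesis, with 0.15. Summed over the 26 genes, the linear intensity was 5905 to 6262 in diluent and 5619 to 6167 in MEKi arrays. Cd63, the brightest of them at 11.55 to 11.67 in diluent on the log2 scale, weighs most in this sum. The sum therefore says little about the dim genes. Of 10 further eosinophil genes none passed (median 0.02). On no array did 8 of them exceed the reference, among them Epx, the eosinophil peroxidase, at 4.36 to 4.48 in diluent. The other 2, Prg3 and Siglecf, exceeded it on every array, at 6.13 to 6.23 and 5.94 to 6.12 in diluent. The differences furthest from 0 were those of Ccr3, the eotaxin receptor (0.18, adjusted p = 0.485 from limma), Epx (0.16), Il5ra, a chain of the IL-5 receptor (0.12), and Siglecf, a lectin of the eosinophil surface (0.10). The intensity summed over the 10 genes was 336 to 351 in diluent and 342 to 376 in MEKi arrays. With 8 of the 10 in the dim range, this sum also says little about their transcripts. RMA gives no value of 0, so a dim value is not an absence of transcript.

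No gene of the related families passed. Some genes stand in several lists, among them Mcpt1, Mcpt2, Ctsg, Gzmb, Prss34, Rnase2b and Mitf, so the counts of the lists are not independent. None of 13 neutrophil granule genes passed (median 0.03), with Lyz2, lysozyme, at 0.42 (adjusted p = 0.19 from limma) and higher in 3 of 3 experiments. Camp, the cathelicidin, had 0.21, Cybb, a subunit of the phagocyte oxidase, −0.21 and S100a8, a calcium-binding protein, −0.19. None of 26 serine protease and carboxypeptidase relatives passed (median −0.01), the differences furthest from 0 being those of Gzme, Prss27 (0.22), Gzmf (−0.20) and Prss30 (0.17). Nor did any of 11 genes of the RNase A family pass (median 0.01), where Ang2 had −0.25, Rnase1 −0.21, Ang4 −0.10 and Rnase2b −0.08. Among 18 GATA factors and partner factors none passed (median 0.02), with Mitf as above, Cebpa at 0.27, Zfpm1, a GATA cofactor, at −0.08 and Spi1, which encodes PU.1, at 0.07. Gata6 was at 8.80 to 9.02 in diluent and had 0.06. Gata1, which mast cells and eosinophils use, was at 5.70 to 5.73 in diluent, at the edge of the dim range.

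None of 15 genes for granule storage passed (median 0.01). Serglycin, encoded by Srgn, was dim at 4.18 to 4.56 in diluent, while Ndst2, which sulphates heparin, was at 8.65 to 8.88. The differences furthest from 0 were those of the heparan sulphate enzymes Hs6st2 (0.15), Hs3st1 (−0.07), Hs6st1 (−0.07) and Glce (−0.06). Of 14 secreted factors to which mast cells and eosinophils respond none passed (median 0.01). Kitl, the KIT ligand, was at 11.27 to 11.54 in diluent and had a difference of −0.02, and the chemokine Ccl2 had −0.53 (standard error 0.0738, adjusted p = 0.0783 from limma), lower in 3 of 3 experiments. Cxcl12, a chemokine of the bone marrow niche, had 0.22, the cytokine gene Il3 0.19 and Il33, an alarmin, −0.07. None of 11 receptors and inhibitors of serine proteases passed (median 0.08). In this group Serpinb1a, an inhibitor of neutrophil elastase and chymotrypsin-like proteases, had 0.82 (standard error 0.122, adjusted p = 0.0956 from limma), with 9.12, 8.75 and 7.27 in diluent and 9.66, 9.92 and 8.02 in MEKi. Slpi, the secretory leukocyte protease inhibitor, had −0.49 (standard error 0.0786, adjusted p = 0.132 from limma). Each kept 1 direction in all 3 experiments. Serpina3n had −0.28 and Spint2, both also protease inhibitors, 0.13.

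**Figure D4:**
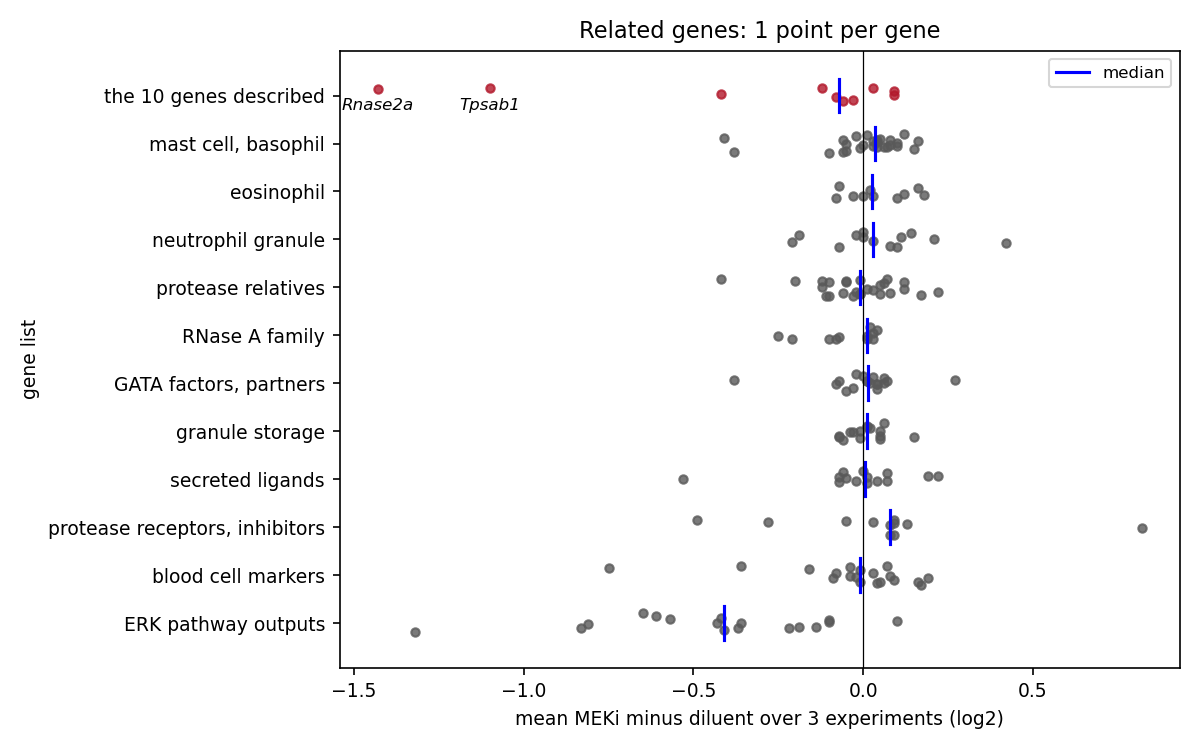
Mean MEKi minus diluent on the log2 scale over 3 experiments (x axis), 1 point per gene, for the 10 genes described and for lists of related genes (y axis); blue lines are medians. Rnase2a and Tpsab1 have the lowest values of the 10 genes, and the medians of the mast cell and basophil list and of the eosinophil list are 0.03 and 0.02.

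In all, 134 of 154 related genes outside the members were measured, and 0 passed in limma (smallest adjusted p = 0.0783). At an unadjusted p under 0.05 there were 13 of the 134, while 9.89% of all probe sets were under it. When an unadjusted p up to 0.05 was paired with a 1.5-fold minimum, 1 of them passed, Serpinb1a, both in limma and in an analysis of variance. MEK acts through the kinase ERK, and of 17 genes known to respond to ERK, Ccnd1, cyclin D1, and Fosl1, an AP-1 subunit, fell (log2 fold change −1.32 and −0.81, adjusted p = 0.03 and 0.0319 from limma), with a median of −0.41 over the 17. Both calls were lost without the experiment as a block, with it as a random block, after median centring and without experiment 2, where no probe set passed (smallest adjusted p = 1, 0.214, 0.0508 and 0.131 from limma). Markers of blood cells in general did not pass either (0 of 19, median −0.01). Of the 19, 8 exceeded the olfactory receptor reference on all diluent arrays and 9 exceeded it on no array. Among the 8 were Itgb2 (7.37 to 7.69 in diluent), Hcls1 (7.12 to 7.49) and Lcp1 (6.35 to 7.13). Ptprc, which encodes the pan-leukocyte antigen CD45, was among the 9, at 4.88 to 5.01 in diluent. Cd53, a leukocyte tetraspanin, was at 6.53 to 7.08 in diluent and had −0.75 (adjusted p = 0.0698 from limma). It had the difference furthest from 0 among the 19, followed by Itgb2 (−0.36), Aif1 (0.19) and Laptm5 (0.17), and the sum over the 19 markers was 1191 to 1248 in diluent and 1094 to 1204 in MEKi arrays. Lower in all 3 experiments were 4 of the 19, Cd53, Itgb2, Lcp1 and Csf1r (7.98% of all probe sets). Higher in all 3 were 2 of the 19 (23.8% of all probe sets). The part of other cell types in the values of Tpsab1 and Rnase2a was not tested beyond these values.

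The genes whose values followed Tpsab1 most closely over the 6 arrays were Per2, a clock gene (Pearson r = 0.985), Dyrk3, a protein kinase (0.984), Mpped2 (0.983), Fetub, a fetuin (0.976), and Anpep, the membrane aminopeptidase CD13 (0.974). All 5 were lower with MEKi in each experiment, Fetub by 0.84 to 1.03 and Dyrk3 by 0.18 to 0.32 on the log2 scale. They were picked for following Tpsab1, itself lower in each experiment, so a shared direction largely follows from that choice. Mpped2, at 5.17 to 5.51, was within the dim range on every array. With MEKi in experiment 2, Dyrk3 (5.67) and Fetub (5.21) were below the olfactory receptor reference of that array (5.80). Those closest to Rnase2a were Olfr464 (0.985), Tpbpa (0.981), Card6 (0.975), Gper1, a membrane receptor for oestrogens (0.973), and Cib3 (0.973). Of these Gper1 had the widest range, with 6.64, 7.28 and 7.16 in diluent and 6.44, 6.57 and 6.88 in MEKi, and the others differed by at most 0.29 in any experiment. Olfr464 (5.26 to 5.51), Tpbpa (3.53 to 3.85) and Cib3 (4.79 to 4.98) were within the dim range on every array. Their likeness to Rnase2a therefore rests on signal not above background. No gene was in both lists. The 6 arrays share the treatment and the 3 experiments, and with so few points a high correlation is found for some of 19938 genes, so these are given as a description.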

How the data were processed

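Total RNA of 6 MS5 cultures was hybridized to Affymetrix mouse Gene ST arrays. The authors normalized the intensities with RMA, per the labels and the paper's methods, and deposited log2 values of 28853 probe sets; versions and genome build are not given in the sources used here. The deposited values were used unfiltered. Of the probe sets, 21789 name 1 gene, 1621 several and 5443 have no symbol listed; where a gene had several, the brightest on average stood for it.

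The MEKi effect was fitted in limma 3.58.1 (R 4.3.3), the experiment entering as a block (2 residual and 5.17 prior degrees of freedom) and Benjamini-Hochberg adjustment over all probe sets, threshold 0.05. The paper gives 1 culture of each condition per independent experiment, and deviations of same-numbered arrays from their group means correlated by 0.81, 0.59 and 0.62, against −0.61 to 0.21 for other pairs. Deviations from a group mean sum to 0, so positive values for same-numbered arrays in themselves force the other pairs lower. The precision is limited by the number of arrays. Tested on simulated arrays, the fit found 37 of 67 planted changes of 1.5-fold, 65 of 67 of 2-fold and all 66 of 3-fold. Of its 174 calls there, 3.45% were false. The simulated noise was normal, independent between probe sets and drawn from the variances of the fit itself, with 200 probe sets changed. The deposited values gave 46 calls and may depart from that noise, so these shares need not hold for them.

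The members, lists, motifs and rules were chosen with earlier results of these data known. Named were all members, up to 4 genes per list by size of difference (any past the threshold first), and for the 2 members with the largest difference the 5 genes with the highest Pearson correlation; further genes were named after their values were seen. GRCm38.p6 gene order and promoters came from RefSeq. Figures were drawn with matplotlib 3.10.9.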

Additional observations from a re-analysis of the deposited data

How the results depend on the processing

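The differences of all 10 members were computed again under quantile normalization of the deposited values, under median centring and on the linear scale. Each moved by less than its spread over experiments. Leaving out 1 experiment cannot move a mean by more than this spread, nor can the linear scale at spreads of this size. That comparison therefore decides nothing for these settings. Median centring moved the mean of every gene by the same amount. The means of Rnase2a and Tpsab1 were lower throughout, with −1.78 to −0.88 and −1.20 to −1.03 without any 1 experiment. Both genes were lower in every experiment, so a lower mean on the linear scale or without any 1 experiment had to follow. Each member had 1 probe set, so averaging probe sets was not run.

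The number of probe sets past the threshold, 46, was 0 without the replicate block (907 at an unadjusted p under 0.05 in limma), 0 with a random block (2321) and 0 after median centring (2780), and it was 15 after quantile normalization (4 higher and 11 lower, against 30 and 16) and 25 without dim probe sets. It was 155 at an unadjusted p of at most 0.05 with 1.5-fold, and 66 by analysis of variance with the same limits. Without any 1 experiment it ran from 0 (without experiment 2, 3063 at an unadjusted p under 0.05 in limma) to 37, with 14 without experiment 1. For most of these settings the cause was not tested; the filter tests fewer probe sets. Of related genes outside the members, 0 passed under each adjusted alternative, and 1, Serpinb1a, at the unadjusted p with 1.5-fold, as by analysis of variance. Where no probe set at all passed, the 0 for the related genes had to follow.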
